A study of Dahlia pinnata with 6 samples.

Results

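Small RNA was sequenced from the petals of the bicolor dahlia cultivar Yuino, in which each petal has a pigmented red region and an unpigmented white region. The regions were cut apart and gave 3 red and 3 white libraries, named by colour and replicate number, and all plants were grown in a greenhouse at 24 °C. The labels name the species as Dahlia pinnata and as D. variabilis, and leave it unstated if separate plants gave the libraries of each colour. The study asked whether flavonoids, the pigment family of the red region, hold back the siRNA output of DCL4 as a whole. The contigs described here are the transcript contigs to which more small RNA was assigned in red than in white. They were selected on the measured red and white values themselves. CPM is a row's read count per 1000000 reads of its library's column total. A contig was kept when its mean over the 6 libraries was at least 5 CPM, its lowest red library stood above its highest white library, and its red mean was at least 2 times its white mean. Of 46967 contigs in the deposited table, 4321 had a mean of at least 5 CPM, and 17.2% of these had every red library above every white library. The whole rule was met by 86 contigs, from 78 Trinity genes, which is 1.99% of the 4321. Trinity is a program that assembles transcripts from RNA reads, and a Trinity gene is its group of contigs with the same name apart from the isoform number.

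Plant small RNAs are cut from longer RNA by Dicer-like enzymes. DCL4 cuts long paired RNA, often made by an RNA-dependent RNA polymerase from a transcript, into siRNAs that guide the cleavage of matching transcripts. A contig that collects many small RNA reads can therefore be a source of siRNAs, a microRNA precursor, or a match to fragments of an abundant RNA, and the table gives no read lengths by which to tell these apart. In bicolor dahlia petals the white region is known for siRNAs against chalcone synthase, the first enzyme of flavonoid synthesis. The garden dahlia is a polyploid with several similar copies of most genes, so a read can match more than 1 contig, and the sources used here do not give how such reads were assigned. The table pairs no contig with a gene name, and no contig sequence was analysed here, so the contigs are named by their IDs and no role is given to any of them. For the same reason the petal tissue could not be checked against marker genes.

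Column totals were 3277753 to 3662222 reads in the red libraries and 3369234 to 3512161 reads in the white libraries. No row of the table was at 0 in red replicate 1, against 11093 to 12808 rows in each other library, so any contig lacking reads in that library was not analysed here. A set of 3 contigs took 0.092% ± 0.061 of the red reads and 9.45% ± 0.89 of the white reads (SD, n = 3 each), which lowers the CPM of every other contig in white. The scaling factors of edgeR's TMM method, which matches libraries on the bulk of rows, were 1.01 to 1.096 in the red libraries and 0.985, 0.845 and 1.02 in white replicates 1, 2 and 3, so white replicate 2 stood apart. In petal pieces, fewer cells of a kind and less small RNA per cell cannot be told apart.

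The 86 contigs were a small fraction of the small RNA in either region. They took 0.721%, 0.606% and 0.633% of the reads in red replicates 1, 2 and 3, and 0.288%, 0.232% and 0.277% in white replicates 1, 2 and 3. The red libraries averaged 0.654% ± 0.060, against 0.266% ± 0.030 for the white libraries (SD, n = 3 each). The lowest red share had a 95% Wilson interval of 0.598% to 0.614% and the highest white share one of 0.283% to 0.294%, which cover counting error only. As the rule put each contig's red libraries above its white libraries, the gap between these shares is a size and was not tested. In reads, the contigs collected 26410, 21305 and 20760 in red replicates 1, 2 and 3, against 10120, 7824 and 9441 in white replicates 1, 2 and 3.

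The reads were concentrated in a few contigs. Mean levels in red ran from 7.17 to 1411 CPM with a median of 17.9 CPM, and mean levels in white from 2.42 to 614 CPM with a median of 7.14 CPM. The contig with the most reads, TRINITY_DN18396_c0_g1_i2, held 21.6% of the members' summed CPM in red and 23.1% in white, and the top 5 together held 43.7% in red and 42.4% in white. At the other end, 45 of the 86 contigs stood under 20 CPM in red and made up 7.38% of the members' red CPM. The lowest read count of a member was 16 in a red library and 3 in a white library, and 23 members had under 10 reads in at least 1 white library. For these the ratio rests on few reads.

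The excess in red was mostly modest. The ratio of the red mean to the white mean ran from 2.00 to 6.74 with a median of 2.33, and 59 members lay between 2 and 2.5, 13 between 2.5 and 3, and 14 at 3 or above. A single contig exceeded 4. The lowest red library stood a median of 1.51 times above the highest white library. In 6 members that gap was at least 2-fold, in 44 at least 1.5-fold, and in 10 it was under 1.1-fold. Within each replicate number, the red library stood at least 2-fold above the white library of the same number for all 3 numbers in 23 members.

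TRINITY_DN16508_c0_g1_i1 had the largest ratio, with 243, 245 and 199 CPM in red replicates 1 to 3 and 34.2, 44.2 and 23.5 CPM in white replicates 1 to 3. The red libraries of this contig were close together and its white libraries spread nearly 2-fold. Its ratio of means was 6.74, and its lowest red library stood 4.49 times above its highest white library. TRINITY_DN20552_c0_g1_i1 was second in ratio and second in red level, at 525, 554 and 411 CPM in red and 136, 118 and 149 CPM in white, a ratio of 3.698. Its colours lay far apart, with a gap of 2.77-fold between the nearest libraries. TRINITY_DN26678_c0_g1_i1 had 29.5, 15.6 and 28.4 CPM in red and 7.69, 5.94 and 7.93 CPM in white, a ratio of 3.41, and replicate 2 was the lowest library of both colours. TRINITY_DN27464_c0_g1_i1, near the CPM minimum, had 9.56, 7.11 and 10.7 CPM in red and 1.99, 3.56 and 2.64 CPM in white, a ratio of 3.34 that rests on 7, 12 and 9 reads in white replicates 1, 2 and 3.

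The most abundant members had ratios between 2.30 and 3.698. TRINITY_DN18396_c0_g1_i2 had 1600, 1227 and 1406 CPM in red and 696, 445 and 700.2 CPM in white, a ratio of 2.30. TRINITY_DN17260_c0_g2_i1 had 441, 325 and 351 CPM in red and 181, 104 and 179 CPM in white, a ratio of 2.41. In both contigs replicate 2 was the lowest library of its colour, and the colours did not come near each other. TRINITY_DN7015_c2_g1_i1 had 365, 238 and 279 CPM in red and 103, 87.0 and 84.3 CPM in white, a ratio of 3.22. With members divided at 20 CPM in red, the 41 more abundant had a median ratio of 2.27 and a median gap between the nearest libraries of 1.57-fold, and the 45 less abundant a median ratio of 2.43 and a median gap of 1.45-fold.

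**Figure D1:**
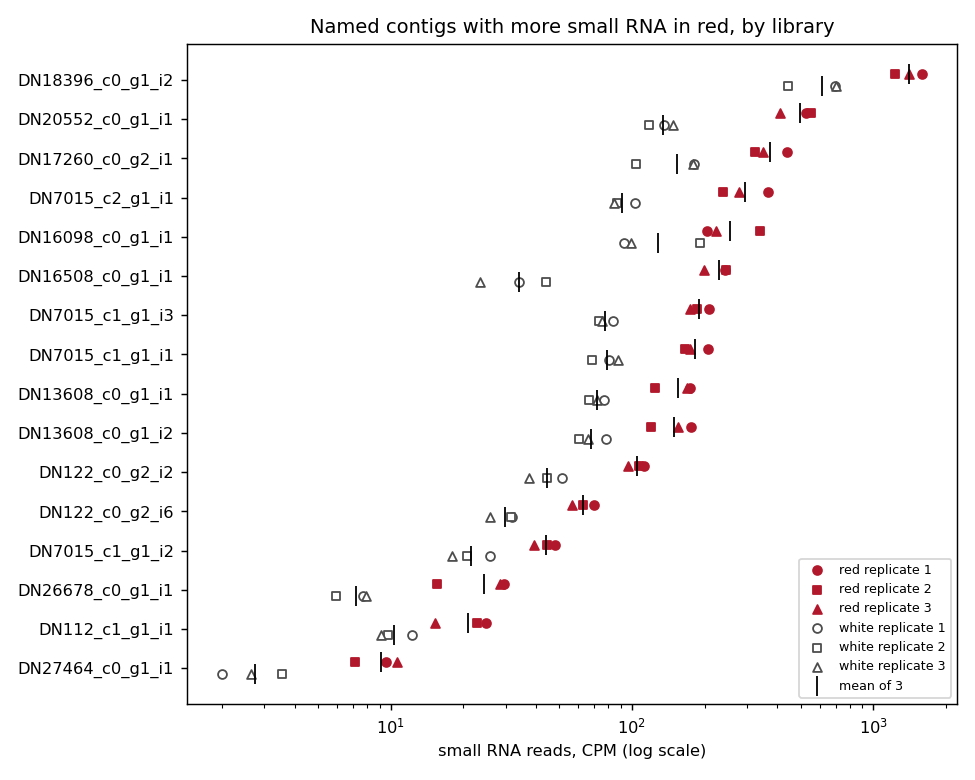
CPM on a log axis of 16 named contigs with more small RNA in red, ordered by red mean; filled symbols are red libraries, open symbols white libraries, symbol shape gives the replicate number and vertical ticks the mean of 3. TRINITY_DN16508_c0_g1_i1 shows the widest gap, and in TRINITY_DN16098_c0_g1_i1 red replicate 2 (340 CPM) and white replicate 2 (192 CPM) are both the highest of their colour.

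At the bound of the ratio, the members just inside were TRINITY_DN16098_c0_g1_i1, with a ratio of 2.00, and TRINITY_DN112_c1_g1_i1, with 2.02. The contigs just outside were TRINITY_DN25122_c0_g1_i1, with 1.999, and TRINITY_DN8291_c0_g1_i2, with 1.99. TRINITY_DN16098_c0_g1_i1 stood at 206, 340 and 223 CPM in red and 92.8, 192 and 99.0 CPM in white. Its libraries numbered 2 were high in both colours, so its lowest red library was 1.07 times its highest white library. TRINITY_DN8291_c0_g1_i2, left out, stood at 8.74, 8.25 and 8.54 CPM in red and 3.99, 3.86 and 4.99 CPM in white, with a wider gap than that. Among the contigs of at least 5 CPM, 24 had a ratio of at least 2 but overlapping libraries, and 659 had all red libraries above all white ones with a ratio under 2.

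Every red library stood above every white library in 745 contigs, and every white library above every red one in 186. The rule was met by 86 contigs for red, and its mirror image by 54 for white. No contig at 0 in red replicate 1 was in the table. Such a contig could be higher in white, but could not have every red library above every white one. The counts for red and white are therefore not on equal terms, under either scaling. Their balance also depended on the scaling. After TMM, 453 contigs had red above white and 438 white above red, and the rule was met by 47 contigs for red and 83 for white. TMM moved the median ratio of all contigs of at least 5 CPM to 1.01, against 1.13 on column totals, and the median ratio of the 86 members to 2.08, against 2.33. All 47 contigs were among the 86, so they made up 54.7% of the members. Of the 86, 54 kept a ratio of at least 2 and 76 kept separate libraries after TMM.

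**Figure D2:**
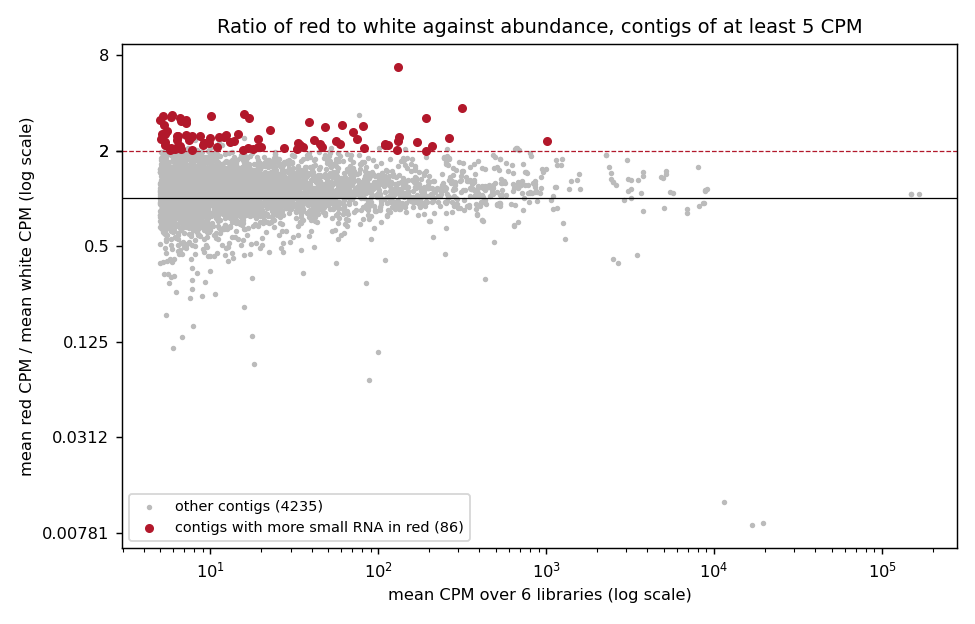
Ratio of the red mean to the white mean (log axis) against the mean CPM over 6 libraries (log axis) for the 4321 contigs of at least 5 CPM, with the 86 members in red; the solid line marks equal means and the dashed line the ratio of 2 that the rule required. Members lie along the upper edge at all levels up to 1012 CPM, and the contigs farthest from equal means are the 3 higher in white at the bottom right.

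Members occurred in every class of abundance. Of the contigs with a mean of 5 to 10 CPM, 38 of 1780 were members (2.13%), and of those of 100 to 200 CPM, 10 of 206 (4.85%). In the other classes the percentage ran from 1.26% to 2.15%. The share of contigs whose red libraries all stood above their white libraries was 12.3% in the lowest class and went up class by class to 36.5% in the 63 contigs of at least 1000 CPM. Of those 63, 1 was a member, so the most abundant contigs with separate libraries mostly had a ratio under 2.

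The main fit, edgeR's quasi-likelihood test on the whole table with TMM, did not pair same-numbered libraries. It called 22 of the 86 members higher in red at an adjusted p under 0.05. Of the 7001 tested rows 0.528% were so called (37 rows, with another 37 called higher in white). As the same contrast chose the members, nothing is read from the count of members. All 86 members had passed the filter on low counts. Their log2 fold changes of red over white ran from 0.82 to 2.57 with a median of 1.06, and the median over all tested rows was 0.01. The rule required a ratio of at least 2 in these same libraries, so it largely set the direction and least size in advance. The called members were abundant ones, with a lowest red mean of 24.5 CPM, and none of the 45 members under 20 CPM in red was called. The median SE of the log2 fold change was 0.34 in those 45 and 0.21 in the other 41. The 14 called contigs that were not members all had a ratio under 2. With the replicate number as a block, 66 of the 86 members were called higher in red, where 2.59% of tested rows were so called (181 rows), and all 22 were among them. By leaving out 1 library at a time the count of members called ran from 16 to 35. The highest was without red replicate 2, where 100 of 7848 tested rows were called. The lowest was without white replicate 3, where 16 of 7957 tested rows were called. In all 6 such fits 16 members were called, and nothing is read from these counts either.

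For the named members, edgeR gave log2 fold changes of 2.57 ± 0.27 SE for TRINITY_DN16508_c0_g1_i1 (adjusted p = 0.0033), 1.74 ± 0.15 SE for TRINITY_DN20552_c0_g1_i1 (adjusted p = 1.0e-04) and 1.52 ± 0.16 SE for TRINITY_DN7015_c2_g1_i1 (adjusted p = 9.2e-04). The fold changes describe size, and the SE the spread when same-numbered libraries are not paired. No adjusted p given here, with or without the block, is read as evidence for a member, since the rule had picked contigs with separate libraries. TRINITY_DN16098_c0_g1_i1, whose libraries numbered 2 were high in both colours, had 0.82 ± 0.44 SE (edgeR adjusted p = 0.54), and 0.89 when same-numbered libraries were blocked (edgeR adjusted p = 0.000595). TRINITY_DN27464_c0_g1_i1, with a ratio of 3.34 on few reads, had 1.56 ± 0.35 SE (edgeR adjusted p = 0.059), and 1.57 with the block (edgeR adjusted p = 0.0137). The block also added calls for TRINITY_DN112_c1_g1_i1 (edgeR adjusted p = 0.0348 with it) and TRINITY_DN7015_c1_g1_i2 (edgeR adjusted p = 0.00526 with it).

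A measure that did not take part in the choice was obtained by applying the rule to the libraries of 2 replicate numbers and reading the contigs so chosen in the red and white library of the third. For the contigs so chosen, the excess in red carried over to the libraries left out, at a smaller size. The rule chose 117 contigs without number 1, 141 without number 2 and 175 without number 3, of which 73, 67 and 72 were among the 86 members. In the libraries left out, 111 of the 117, 127 of the 141 and 139 of the 175 were higher in red, which is 94.9%, 90.1% and 79.4%. Over all contigs of at least 5 CPM in the choosing libraries, the same shares were 62.6%, 72.4% and 57.1%. The chosen contigs were thus higher in red more often than contigs at large for each number left out. Those among the 86 members were higher there by the rule itself. The shares therefore describe the chosen contigs and do not test the members.

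The size shrank in the libraries that did not choose. The median ratio of the chosen contigs was 2.26, 2.25 and 2.25 in the choosing libraries without number 1, 2 and 3, and 1.95, 1.67 and 1.5004 in the red and white library left out. The median over all contigs in those left-out libraries was 1.11, 1.20 and 1.07. At least 2-fold more in the left-out red library was seen for 45.3%, 36.9% and 26.3% of the chosen contigs, against 6.87%, 8.87% and 4.58% of all contigs. After TMM the rule chose 55, 84 and 71 contigs, whose median ratios in the libraries left out were 1.75, 1.55 and 1.64, while the medians over all contigs were 1.00, 1.01 and 1.01. For the contigs so chosen, the ratio of 2 that the rule required was therefore larger than the median ratio in the libraries left out. With 2 libraries of each colour the rule asked for less than with 3. Of the contigs chosen on column totals without number 1, 2 and 3, 73, 67 and 72 were members. How far the ratios of the members themselves would shrink in libraries outside the choice was not tested. Same-numbered red and white libraries varied together, and contigs of the same Trinity gene are counted separately, so no p is given for these 3 readings.

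**Figure D3:**
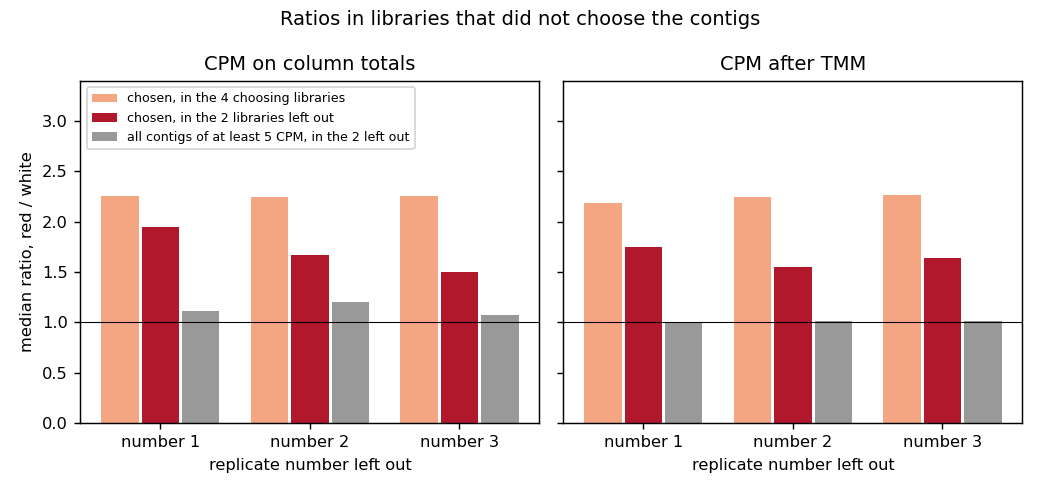
Median ratio of red to white for contigs chosen by the rule without 1 replicate number: in the 4 libraries that chose them (light bars), in the red and white library left out (dark bars), and for all contigs of at least 5 CPM in the libraries left out (grey bars), on column totals at left and after TMM at right. The dark bars lie between 1.5004 and 1.95 on column totals, below the light bars and above the grey ones for every number.

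Members differed in which library of a colour was highest. Red replicate 1 was the highest red library in 44 of 86 members (51.2%), against 35.5% of the other 4235 contigs of at least 5 CPM, and red replicate 2 was the lowest in 48 members (55.8%), against 46.8% of the others. White replicate 2 was the lowest white library in 50 members (58.1%) and in 60.7% of the others. After TMM it was the lowest in 33 members (38.4%) and in 37.4% of the others, and red replicate 2 the lowest red library in 39 members (45.3%) and in 37.6%. Red replicate 1 is the library in which every row of the table has a read, and its part in this pattern was not tested. The same replicate number was highest in both colours in 47 members (54.7%), against 46.6% of the other contigs, and lowest in both in 50 members (58.1%), against 48.4%. On column totals, same-numbered libraries thus went together in members somewhat more often than in other contigs, a difference that was not tested. Replicate 2 had the lowest TMM factor of each colour (1.01 in red, 0.845 in white), and the same-number counts were not redone after TMM. TRINITY_DN15556_c0_g1_i1, named after its values were seen, is a clear case, with 24.8, 51.2 and 23.2 CPM in red and 7.12, 21.1 and 8.52 CPM in white.

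Most members stood alone in their Trinity gene. Of the 78 Trinity genes, 71 held 1 member, 6 held 2 and 1 held 3. In 49 genes (62.8%) the table had a single contig, close to the 59.4% of the 2733 other Trinity genes with a contig of at least 5 CPM. TRINITY_DN7015_c1_g1 held 3 members and no other contig of at least 5 CPM. Its isoform 1 had 206, 166 and 175 CPM in red and 80.6, 68.6 and 87.8 CPM in white, isoform 2 had 48.1, 44.4 and 39.4 CPM in red and 25.9, 20.8 and 17.9 CPM in white, and isoform 3 had 209, 185 and 174 CPM in red and 83.7, 73.3 and 74.9 CPM in white. Their ratios were 2.31, 2.04 and 2.45, and each had red and white libraries well apart. TRINITY_DN7015_c2_g1_i1, with a ratio of 3.22, carries the same cluster number in its name, so 4 members come from the TRINITY_DN7015 cluster, and 2 from TRINITY_DN17260. Isoforms 1 and 2 of TRINITY_DN13608_c0_g1, a gene with no further contig, had nearly equal levels. Isoform 1 had 174, 125 and 170 CPM in red and 76.3, 66.5 and 71.4 CPM in white, and isoform 2 had 175, 119 and 156 CPM in red and 78.0, 60.3 and 65.8 CPM in white. Whether such isoforms collected the same reads was not tested, so they are not separate observations of the excess in red.

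Beside the 86 members, their Trinity genes held 79 further contigs, of which 41 in 20 genes had a mean of at least 5 CPM. These sister isoforms mostly leaned towards red too. In 40 of the 41 (97.6%) the red mean was above the white mean, against 67.0% of 4194 contigs of Trinity genes without a member, and the median ratio was 1.65, against 1.12. After TMM it was 39 of 41, with a median ratio of 1.45, against 50.6% and a median of 1.01. In 16 sisters (39.0%) all red libraries stood above all white ones with a ratio under 2, against 15.3% of contigs of genes without members. In 6 (14.6%) the ratio was at least 2 but libraries overlapped, against 0.429%. These were isoforms 8, 11, 14, 19 and 20 of TRINITY_DN112_c1_g1 and isoform 1 of TRINITY_DN11656_c0_g1, so that percentage rests mainly on a single Trinity gene. In 18 (43.9%) libraries overlapped with a ratio between 1 and 2, against 51.2%, and in 1 (2.44%) every white library stood above every red one, against 4.41%. No sister of at least 5 CPM had overlapping libraries with a ratio under 1, against 28.6%. Of the 38 sisters under 5 CPM, 16 had a ratio under 1. As sisters can share reads with the member, these counts describe the Trinity genes and do not stand apart from the choice of members.

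**Figure D4:**
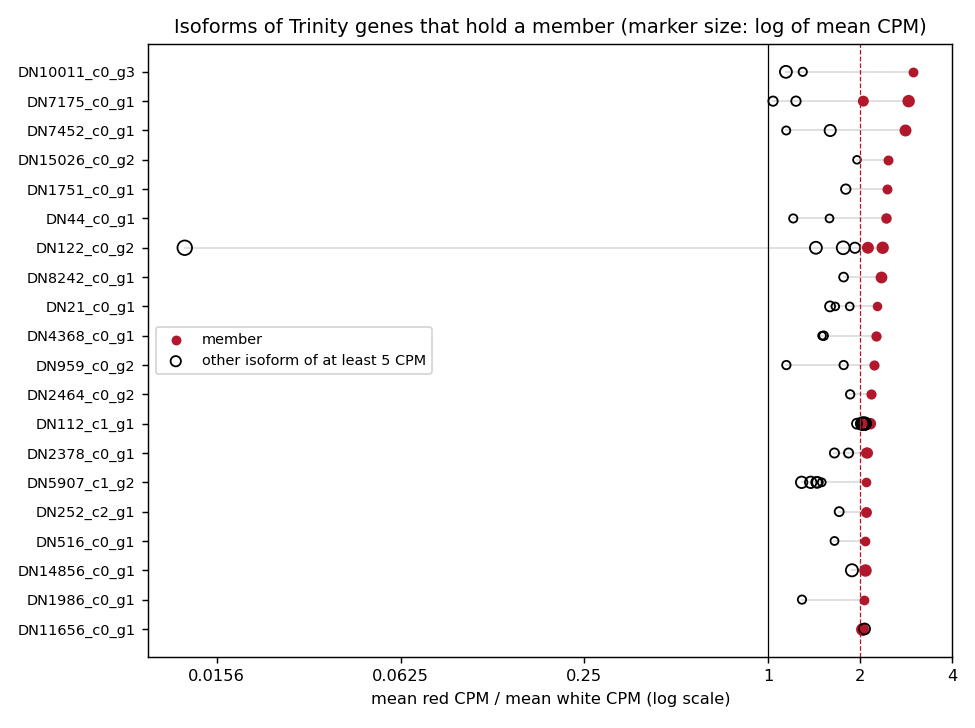
Ratio of the red mean to the white mean (log axis) for the isoforms of at least 5 CPM in the 20 Trinity genes that hold a member and such a sister; filled red points are members, open points are sisters, and marker size grows with the log of mean CPM. Of the 41 sisters 40 lie right of the line of equal means, and isoform 5 of TRINITY_DN122_c0_g2 lies far left of it, at 0.0123.

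The most abundant contig was a member in 16 of the 29 Trinity genes with 2 or more contigs, beside the 49 genes whose only contig was the member. In the 20 genes with a sister of at least 5 CPM it was a member in 7. The Trinity genes in the rest of this paragraph were named after their values were seen. TRINITY_DN112_c1_g1 held 8 contigs, of which the members, isoforms 1 and 18, carried 1.67% of the gene's CPM in red and 1.62% in white. The most abundant sister, TRINITY_DN112_c1_g1_i20, stood at 1153, 1060 and 558 CPM in red and 568, 434 and 364 CPM in white. Its ratio was above 2, but red replicate 3 fell just below white replicate 1, so it was left out by the overlap alone. Isoforms 8, 11, 14 and 19 showed the same arrangement. Member isoform 18 had 54.9, 58.3 and 26.8 CPM in red and 25.6, 22.9 and 16.4 CPM in white, with red replicate 3 only 1.05 times above white replicate 1. The gene as a whole averaged 4052 CPM in red and 1978 CPM in white.

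In other genes the members had larger ratios than the sisters named here. TRINITY_DN10011_c0_g3_i2, a member at 11.2, 6.83 and 14.03 CPM in red and 4.56, 1.48 and 4.70 CPM in white, carried 2.61% of its gene's CPM in red and 1.02% in white. The main isoform, TRINITY_DN10011_c0_g3_i3, stood at 382, 260 and 526 CPM in red and 512, 109 and 402 CPM in white, so its colours overlapped. TRINITY_DN7452_c0_g1_i3, a member with a ratio of 2.81, carried 24.6% of its gene's CPM in red and 15.3% in white. Its sister TRINITY_DN7452_c0_g1_i5 had 243, 152 and 218 CPM in red and 133, 119 and 132 CPM in white, higher in each red library but with a ratio of 1.59. In TRINITY_DN7175_c0_g1 the members, isoforms 2 and 4, had ratios of 2.05 and 2.88, and sisters 1 and 5 overlapped between colours with ratios of 1.23 and 1.04. After TMM the ratio of isoform 5 was 0.906. These genes were picked for such differences, which were not tested.

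Among isoforms of at least 5 CPM, isoform 5 of TRINITY_DN122_c0_g2 was the one that was higher in white beside members. Isoform 2 had 113, 107 and 96.7 CPM in red and 51.5, 44.5 and 37.6 CPM in white, and isoform 6 had 69.4, 62.9 and 56.7 CPM in red and 31.9, 31.5 and 25.8 CPM in white, with ratios of 2.37 and 2.12. Isoforms 1, 3 and 4 stood higher in every red library than in any white one, with ratios of 1.43, 1.92 and 1.76. Isoform 5 had 219.8, 465 and 147 CPM in red and 23443, 22024 and 22199 CPM in white. It was thus the most abundant isoform of the gene in white and far from it in red, where isoform 4 averaged 1458 CPM. Summed over isoforms, the gene averaged 2421 CPM in red and 23807 CPM in white, so it went in the direction of isoform 5. The members held 6.96% of the gene's CPM in red and 0.312% in white.

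With isoforms summed before the rule was applied, 70 Trinity genes met it, of which 59 held a member and 11 held none. The other 19 genes with members did not meet it as sums. In 77 of the 78 genes the summed red mean was above the summed white mean, TRINITY_DN122_c0_g2 being the exception, and the median summed ratio was 2.26. The 49 genes with a single contig met it by construction, as their sum is the member itself. Of the 29 genes with 2 or more contigs, 10 met the rule as a sum, and of the 20 with a sister of at least 5 CPM, 3 did.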

How the data were processed

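The authors deposited whole-number counts of small RNA reads per contig of a Trinity assembly or per microRNA name, without normalisation. Per the submitters' processing notes cutadapt and Bowtie2 were used, while versions, settings, read lengths and the assignment of multiply matching reads are not given in the sources used here. Per the labels' protocols, total RNA was extracted with Trizol and a NEBNext kit for small RNA made the libraries. The rule was applied to CPM on column totals of all 47083 rows. The whole table was fitted in edgeR (version 4.0.16 under R 4.3.3) by its quasi-likelihood test (TMM, robust dispersion, filterByExpr with a minimum count of 10), red over white, with p-values adjusted by the Benjamini-Hochberg method over 7001 rows at a threshold of 0.05. SE is the log2 fold change divided by the square root of F. The fit was also run on simulated data, drawn without any tie between same-numbered libraries, and the outcome is not reported here. TMM values for the rule used column totals times the TMM factor.

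After removal of group means, log2 CPM (prior count 2) of same-numbered red and white libraries correlated at 0.20, 0.29 and 0.20 across rows. Each exceeded 0.1, the value above which same numbers were taken as pairs. The main edgeR fit did not include these pairs, and only the fit with the replicate block did. SE and adjusted p are from the main fit unless the block is named. Replicates of a colour differed beyond sampling noise (lowest chi-square per degree of freedom 3.29), and p-values rest on a spread among these libraries that may be technical. The members and lists were chosen with earlier results of these data known. Named are the 4 members with the largest ratio, the 4 most abundant in red (1 per Trinity gene), the 2 contigs on each side of the ratio of 2, the isoforms of the 3 genes with the most members (ties by red CPM, settled after the values were seen), and members beside an isoform higher in white; others were named after their values were seen. Alternatives were other scalings, bounds and filters, DESeq2 (1.42.0), the replicate block, summed isoforms and each library left out.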

Additional observations from a re-analysis of the deposited data

How the results depend on the processing

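How many contigs met the rule depended on its bounds and on the scaling. The 86 contigs became 47 after TMM (45 Trinity genes in place of 78), 52 with totals that leave out the 3 contigs most raised in white (added after seeing the data), 221 and 48 with a minimum mean of 2 and of 10 CPM, and 386 and 14 with a minimum ratio of 1.5 and of 3. Leaving out 1 library gave 91 to 157 contigs in 83 to 138 Trinity genes, the most without red replicate 2; 140 met it without white replicate 1 and 141 without white replicate 3. Between 58 and 82 of the 86 were among them. The percentage of sister isoforms higher in red, recomputed after seeing the data, ran from 86.0% to 94.2% with 1 library left out. The contigs' share of red reads was 1.26% with the 3 most abundant contigs out of the total. Contigs chosen without a replicate number were higher in the left-out red library in 87.1% of cases over the 3 numbers, and in 82.4% after TMM. Among all contigs of at least 5 CPM in the choosing libraries, that share was at most 72.4% for any number left out, and at most 51.2% after TMM. A contig chosen under several numbers is counted each time. On column totals, the members among the chosen were higher in the left-out red library by the rule itself.

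By edgeR 37 of 7001 tested rows were called higher in red, 22 of them members. With library totals it was 109 of 7001 rows and 54 members, and with the replicate block 181 of 7001 and 66. With no filter on low counts it was 128 of 47083 rows and 53 members. DESeq2 called 95 rows and 39 members, and left the adjusted p undefined for 44729 of 47083 rows, 41 members among them. Leaving out 1 library gave 16 to 100 rows of 7791 to 8044 tested, and 16 to 35 members. Without red replicate 2 it was 100 rows and 35 members. It was 20 rows without red replicate 1, 23 without white replicate 1 and 16 without white replicate 3. The causes of these shifts were not tested, and nothing is read from the counts of members, which the same contrast chose. Of 159 alternatives run on 16 named members, 12 gained a call and 4 lost it, all 4 without 1 library. The replicate block added 4 of the calls gained. None turned a direction, but the rule had largely set the direction of these members in advance, so nothing is read from that. Counts under 10 reads in white limit the ratio of 23 members.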
